A study of Mus musculus with 6 samples.

Results

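The genes described here are the 30 integrin and laminin subunits of the expression table, chosen by gene name, out of 55416 genes listed. They comprise 12 integrin alpha subunits, 8 integrin beta subunits and 10 laminin chains. RNA was sequenced from primary mouse chondrocytes, the cells that build cartilage, taken from neonatal mouse knee joints per the labels and grown in DMEM/F12 with 10% FBS. The supplementary methods describe chondrocytes from older mice, so the age of the donors differs between these sources. Cells labelled WT received a scrambled control siRNA (siNC, n = 3), and the compared cells an siRNA against Pkm2 (siPkm2, n = 3), which encodes the M2 isoform of the glycolytic enzyme pyruvate kinase. The methods give 50 nM siRNA and a check of the knockdown at 48 hours. The labels do not say whether replicates came from separate mice or cultures, so p-values measure the spread between these libraries, which may be technical. For replicates 2 and 3 of siPkm2, the genotype label names other PKM numbers although their titles say siPKM2.

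Integrins are receptors made of an alpha and a beta subunit that span the cell membrane. Outside the cell they bind matrix proteins, and inside they join the actin cytoskeleton through talin, kindlin and vinculin, with signals passing through focal adhesion kinase. The alpha subunit largely sets the ligand: some alphas pair with beta1 to bind collagen, others bind laminin, and others bind the arginine-glycine-aspartate (RGD) sequence of fibronectin and related proteins. Laminins are trimers of an alpha, a beta and a gamma chain and are found in basement membranes and in the pericellular matrix around chondrocytes. In cartilage, integrins with alpha10 and alpha1 are known collagen receptors and alpha5 beta1 is a known fibronectin receptor.

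Total estimated counts lay between 22317065 and 25691096 per library. Pkm fell 5.76-fold with the replicate number as a block, from 2335, 2746 and 1674 CPM (counts scaled to a common library size) in siNC replicates 1 to 3 to 336, 541 and 309 CPM in siPkm2 replicates 1 to 3 (log2 fold change of -2.53 ± 0.13 SE, quasi-likelihood test of edgeR, Benjamini-Hochberg adjusted p = 0.00932). Without the block the adjusted p was 0.0738. The table gives 1 value for the gene and does not separate its M1 and M2 isoforms. Both libraries of replicate 2 stood apart from the rest: the summed level of 9 inflammatory genes was 34424 and 32297 TPM (counts scaled by transcript length and library size) there, against 52.4 to 372 TPM in the other 4 libraries. The summed level of 10 chondrocyte markers was 4292 and 5726 TPM in replicate 2 and 16269 to 20858 TPM elsewhere. Summed TPM of 15 interferon-response genes was 56.2, 2556 and 96.2 in siNC replicates 1 to 3 and 1657, 4274 and 1203 in siPkm2 replicates 1 to 3. All 15 had a positive log2 fold change without the block, none at an adjusted p under 0.05. In edgeR with the block, 4 were higher at an adjusted p under 0.05, where 12.3% of all genes were. Of these 4, 3 were over 2-fold higher, where 2.65% of all genes were. The part of this response in the subunit values was not tested. The 8 leukocyte markers summed to 118 and 87.8 TPM in replicate 2 and 11.4 to 26.4 TPM elsewhere. Ptprc and Adgre1 were at 0.1 TPM or less in each library, so other markers made up these sums. Of the 8, 4 had enough counts for a test. In edgeR with the block, 1 of them was over 2-fold higher in siPkm2 at an adjusted p under 0.05, where 2.65% of all genes were. Endothelial markers summed to at most 10.6 TPM.

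The laminin chains Lama4, Lamb1, Lamb2 and Lamc1 were lower in siPkm2 than in siNC, as were the collagen-binding subunits Itga1 and Itga11, while Itga2, Itgb1, Itgb6 and Itgb8 were higher. Of the 30 subunits, 29 had enough counts for a test. Without the block, no subunit passed an adjusted p of 0.05 in edgeR, and neither did any of the 15269 genes tested (0% called). At an unadjusted p under 0.05 there were 8 subunits, or 27.6% of those tested, against 2690 of all genes, or 17.6%. DESeq2's Wald test without the block put 6 subunits under an adjusted p of 0.05, of which 3 (Itga11, Itgb6 and Itgb8) also passed a fold change of 2. Over all genes DESeq2 gave 5.38% and 2.79% for these thresholds. Itgb6 was among the 8, the 6 and the 3, and edgeR kept it through its siPkm2 counts alone, so these shares are a description.

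Libraries with the same replicate number deviated together, so the number was also fitted as a block. With it, 4 subunits passed both a fold change of 2 and an adjusted p of 0.05, of which 3 were higher (Itga2, Itgb6, Itgb8) and 1 was lower (Itga11). That is 13.8% of the tested subunits, against 5.83% of all genes tested (2.65% higher and 3.18% lower). Itgb6 had enough counts in siPkm2 alone and could only be tested because it was high there, so its values are a description. Apart from it, 3 of 28 subunits (10.7%) were called and 9 (32.1%) had an adjusted p under 0.05. At an adjusted p of 0.05 with no threshold on the fold, 4 of all 29 subunits were higher and 6 were lower, 34.5% of those tested against 23.1% of all genes. In the text that follows, "rose" and "fell" are used of a gene with an adjusted p under 0.05 in edgeR with the block, and the value without the block stands beside it. Neither word is used of Itgb6. The median log2 fold change of the 29 subunits was -0.018 without the block, beside -0.021 over all genes, so the family did not move in a single direction. In 18 of the 29 all 3 pairs moved the same way (8 higher, 10 lower), where 61.1% of all genes did so, and in 10 the groups did not overlap by CPM (5 higher, 5 lower), where 24.3% of all genes did not. Itgb6 was among the 8 and among the 5 that were higher, so these counts too are a description. For a single gene, the smallest two-sided p that exact permutation of 3 against 3 libraries can give is 0.1.

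**Figure D1:**
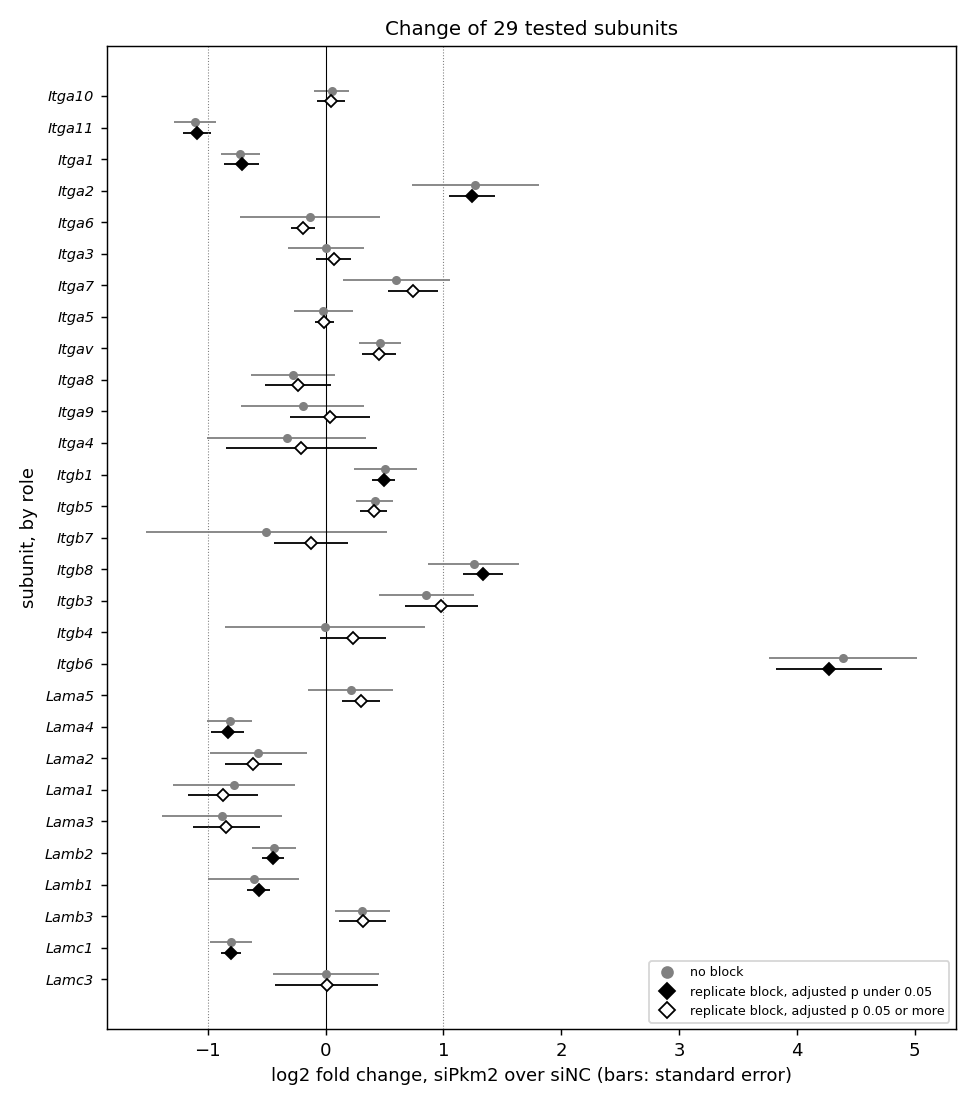
Log2 fold change of siPkm2 over siNC (horizontal axis) for the 29 tested integrin and laminin subunits, grouped by role. Grey circles are edgeR fits without the block and diamonds are fits with the replicate number as a block, bars are standard errors, and filled diamonds mark the 10 subunits with an adjusted p under 0.05 with the block, from -1.09 for Itga11 to 4.27 for Itgb6.

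The order of the subunits by level was led by the integrin beta1 subunit. TPM is corrected for transcript length and allows genes to be compared. Itgb1 had a mean of 299 ± 40.2 TPM in siNC and 412 ± 98.4 TPM in siPkm2 (SD, n = 3 each), and its libraries lay above those of the next subunit, Itgb5, in both groups. Below Itgb5 came Lamb2, Itga5 and Lamc1, then Lama5, Itga6, Itgav, Itga3, Lamb1, Lama4 and Itga10. Of the 29 pairs of neighbours in this order, only 2 (Itgb1 above Itgb5, and Lama3 above Lamc3) had libraries that were separate in both groups, so most neighbouring ranks did not differ beyond the spread between libraries. A ranking by CPM per kilobase moved no subunit by more than 3 ranks. Mean levels under 1 TPM in both groups were seen for 6 subunits: Itga4, Itga8, Itgb2, Lama1, Lama3 and Lamc3. These cells thus held beta1, beta5, alpha5, alphaV, alpha3 and alpha6 transcripts of the integrins, and alpha4, alpha5, beta1, beta2 and gamma1 chain transcripts of the laminins.

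**Figure D2:**
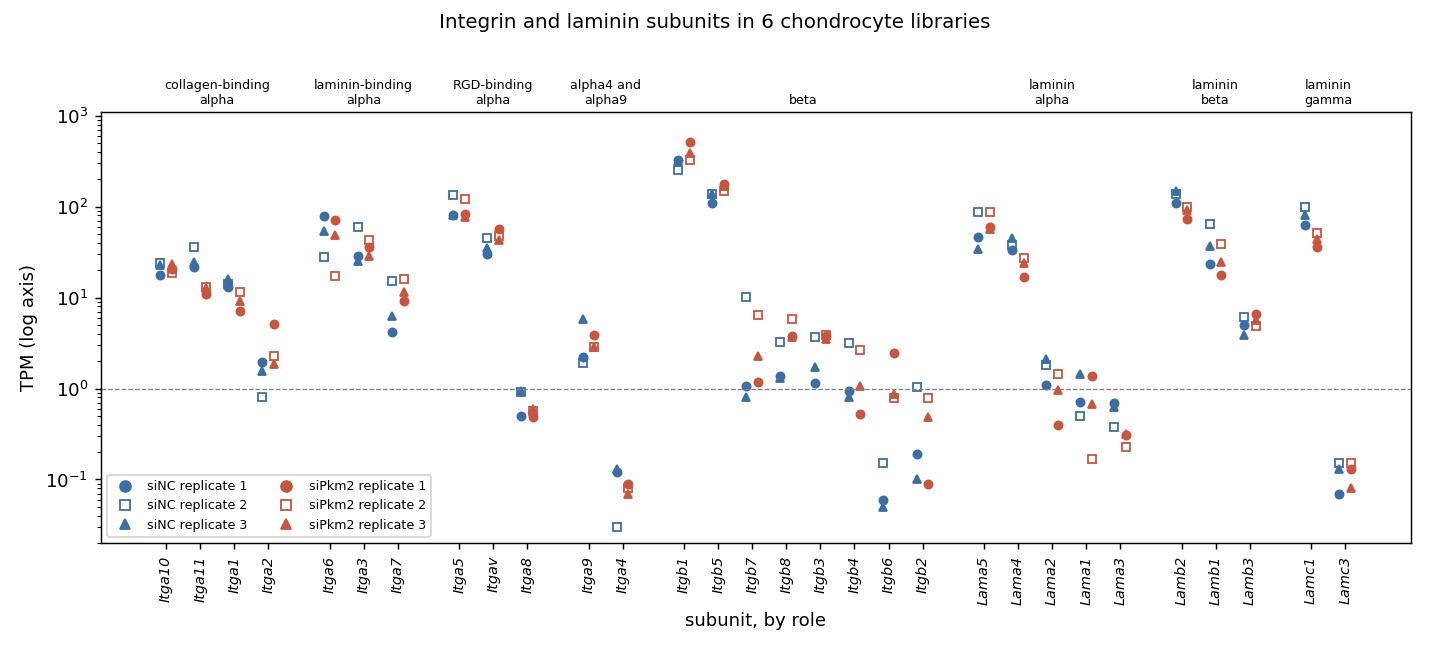
TPM on a log axis for all 30 subunits by role, with 1 point per library and the dashed line at 1 TPM. Itgb1 stands highest, at 253 to 519 TPM, and 6 subunits have means under the line in both groups.

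Among the collagen-binding alpha subunits, Itga11 and Itga1 fell, Itga2 rose, and Itga10 kept a similar level. Itga11 (chr9:62677826-62783982 on GRCm38, plus strand) encodes a receptor for fibrillar collagens typical of mesenchymal cells. Itga11 had 21.9, 35.8 and 24.4 TPM in siNC replicates 1 to 3 and 10.8, 13.0 and 12.8 TPM in siPkm2 replicates 1 to 3. All 3 siPkm2 libraries lay below all siNC libraries, and the fall was seen in every pair, by 1.01, 1.38 and 0.85 on the log2 scale. The fold was 2.13 lower (log2 fold change of -1.09 ± 0.12 SE, adjusted p = 0.0119 by edgeR with the block, and -1.11 ± 0.18 SE with an adjusted p of 0.0942 without it).

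Itga1, the subunit of a receptor that prefers basement membrane and other network collagens, had 13.1, 14.1 and 15.9 TPM in siNC and 7.04, 11.4 and 9.13 TPM in siPkm2. Again the groups did not overlap, with the smallest fall in replicate 2. For Itga1 the log2 fold change was -0.71 ± 0.15 SE with the block (1.64-fold lower, adjusted p = 0.0287) and -0.72 ± 0.17 SE without it (adjusted p = 0.136). Another coding gene, Pelo, lies on the same strand inside Itga1, as does the gene model Gm49395, so reads of these could be split between them. Pelo itself had a log2 fold change of 0.17 (adjusted p = 0.626, edgeR without the block). Whether shared reads had a part in the value of Itga1 was not tested.

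Itga2, whose product binds fibrillar collagens, lies next to Itga1 on chromosome 13 (chr13:114833081-114932100 against chr13:114953096-115101964 on GRCm38, both on the minus strand), with 20995 bases and no coding gene between them. These neighbours moved in opposite directions. Itga2 had 1.96, 0.80 and 1.54 TPM in siNC and 5.10, 2.28 and 1.87 TPM in siPkm2. The third siPkm2 library lay below the first siNC library, so the groups overlapped, but each pair was higher, by 1.33, 1.46 and 0.72 on the log2 scale of CPM. The log2 fold change was 1.25 ± 0.20 SE with the block (2.37-fold, adjusted p = 0.0173) and 1.27 ± 0.54 SE without it (adjusted p = 0.290). With single libraries left out and no block, its log2 fold change ranged from 0.65 without siPkm2 replicate 1 to 1.77 without siNC replicate 1. Even after the rise, Itga2 remained the least abundant of the 4 collagen-binding alphas in each siPkm2 library.

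Itga10, the alpha subunit best known from cartilage, had 17.5, 24.2 and 22.6 TPM in siNC and 20.8, 18.6 and 23.1 TPM in siPkm2. Its libraries overlapped and its log2 fold change was 0.052 ± 0.15 SE (adjusted p = 0.897, edgeR without the block), a value whose sign was negative with upper-quartile scaling (-0.014). Added together, the 4 collagen-binding alphas had 64.6 ± 10.3 TPM in siNC and 45.3 ± 1.60 TPM in siPkm2 (SD, n = 3 each). Within that sum, Itga11 made up 41.9% ± 5.23 in siNC and 26.9% ± 2.0 in siPkm2, and Itga10 made up 33.2% ± 1.63 and 46.0% ± 4.31. The most abundant collagen-binding alpha was therefore Itga11 in each siNC library and Itga10 in each siPkm2 library, though Itga10 itself showed no detectable difference.

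The laminin-binding alphas Itga3, Itga6 and Itga7 did not pass the test with or without the block. Itga3 had 29, 59.8 and 25.2 TPM in siNC and 35.7, 43.2 and 28.4 TPM in siPkm2 and was highest in replicate 2 of both groups. Itga6 showed the opposite, at 78.2, 27.8 and 54.2 TPM in siNC and 72.1, 17.5 and 48.6 TPM in siPkm2, with its lowest values in replicate 2. The replicate number thus separated these libraries more than the siRNA did. The log2 fold change of Itga3 with the block was 0.07 ± 0.15 SE (adjusted p = 0.758) and that of Itga6 was -0.19 ± 0.10 SE (adjusted p = 0.223). Itga7, best known from muscle, had means of 8.5 ± 5.79 TPM in siNC and 12.3 ± 3.60 TPM in siPkm2, with a log2 fold change of 0.74 ± 0.21 SE and an adjusted p of 0.0573 with the block.

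Of the RGD-binding alphas, Itga5 was the most abundant and did not differ detectably. Its values were 81.1, 133 and 80.5 TPM in siNC and 83.4, 121 and 77.3 TPM in siPkm2, nearly equal within each replicate number. Its log2 fold change with the block was -0.011 ± 0.081 SE (adjusted p = 0.934). Itgav, the alpha chain shared by the vitronectin and latent TGF-beta receptors, had 30.1, 44.8 and 35.0 TPM in siNC and 57.0, 47.3 and 42.8 TPM in siPkm2. By TPM the second siNC library lay above the third siPkm2 library, while by CPM the groups did not overlap. The log2 fold change of Itgav was 0.46 ± 0.18 SE without the block (adjusted p = 0.256) and 0.45 ± 0.14 SE with it (adjusted p = 0.0728), so it did not pass. Itga8 had means under 1 TPM in both groups. Itga9 and Itga4 share ligands such as osteopontin and VCAM1. Itga9 had 3.31 ± 2.18 TPM in siNC and 3.19 ± 0.60 TPM in siPkm2, and Itga4 had 4 to 20 counts per library.

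Among the beta subunits, Itgb1 and Itgb8 rose, and Itgb6 was higher in siPkm2 but is only described. Itgb1 is the partner of most alphas listed above, including all of the collagen-binding ones. Its levels were 329, 253 and 315 TPM in siNC and 519, 325 and 393 TPM in siPkm2. Replicate 2 of siPkm2 lay below replicate 1 of siNC by CPM, so the groups overlapped, and yet each pair was higher, by 0.64, 0.43 and 0.40 on the log2 scale. For Itgb1 this gave a log2 fold change of 0.49 ± 0.10 SE with the block (1.41-fold, adjusted p = 0.0268) and 0.51 ± 0.27 SE without it (adjusted p = 0.387).

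Itgb6 pairs with alphaV and is known as an epithelial receptor that activates latent TGF-beta. The gene (chr2:60598292-60722643 on GRCm38, minus strand) had 4, 4 and 3 estimated counts in siNC replicates 1 to 3 and 126, 48 and 46 in siPkm2 replicates 1 to 3. All siPkm2 libraries lay far above all siNC libraries, and the gene was kept for testing through its siPkm2 counts alone. The summed counts were 11 and 220, a ratio of 21 at equal library sizes (exact 95% interval of 11.5 to 42.7, which covers counting error only). The adjusted p of Itgb6 (0.0112 with the block and 0.0821 without it in edgeR) is not read as a test for that reason. The log2 fold change was 4.27 ± 0.45 SE with the block and 4.39 ± 0.63 SE without it. Over the alternatives the value ran from 1.06 in limma on log2(TPM + 1) and 2.84 on log2(TPM + 0.1) to 4.71, and it was 3.66 without siPkm2 replicate 1, so its size depends on the offset added to the near-0 siNC values. Its level stayed low even so, at 2.46, 0.78 and 0.88 TPM in siPkm2 against 0.06, 0.15 and 0.05 TPM in siNC. The 6 epithelial markers summed to 2.39, 8.19 and 0.68 TPM in siNC and 5.74, 4.32 and 2.52 TPM in siPkm2. The sum was thus higher in siPkm2 in replicates 1 and 3 and lower in replicate 2. Epcam had means of 0.21 and 0.16 TPM. Only 2 of the 6 had enough counts for a test. Both were higher in siPkm2, at log2 fold changes of 0.14 and 1.32 without the block, and neither passed with or without it.

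Itgb8, the other partner of alphaV that activates latent TGF-beta, had 1.39, 3.26 and 1.32 TPM in siNC and 3.74, 5.81 and 3.67 TPM in siPkm2. The siPkm2 libraries all lay above the siNC libraries. Fitted over all pairs, the difference was 1.34 ± 0.17 SE on the log2 scale with the block (2.53-fold, adjusted p = 0.0133) and 1.26 ± 0.39 SE without it (adjusted p = 0.188). As with Itgb6, the product was rare beside the main beta subunits.

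Itgb5 and Itgb3, which pair with alphaV to bind vitronectin and related ligands, were higher in siPkm2 in every pair but did not pass the test. Itgb5 had 110, 139 and 137 TPM in siNC and 179, 150 and 167 TPM in siPkm2, with no overlap. Its adjusted p was 0.246 without the block and 0.0558 with it, at log2 fold changes of 0.42 and 0.41. Itgb3 had means of 2.20 ± 1.35 and 3.74 ± 0.18 TPM, with a log2 fold change of 0.98 ± 0.31 SE and an adjusted p of 0.0742 with the block. When replicate 2 was left out of both groups, a choice made after seeing the data, Itgb3 passed without a block (log2 fold change of 1.42, adjusted p = 0.0446).

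The remaining beta subunits mark blood cells or epithelia. Itgb2, the leukocyte beta subunit, had 8, 42 and 3 counts in siNC and 3, 13 and 6 in siPkm2 and was not tested. Itgb7, the partner of alpha4 and alphaE in lymphocytes, had 1.07, 10.2 and 0.80 TPM in siNC and 1.17, 6.50 and 2.30 TPM in siPkm2, high in replicate 2 of both groups. Itgb4, the partner of alpha6 in epithelial hemidesmosomes, likewise had 228 and 193 counts in replicate 2 and 38 to 64 in the other libraries. For these genes the libraries differed by replicate number, and both had adjusted p-values over 0.5 with the block.

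**Figure D3:**
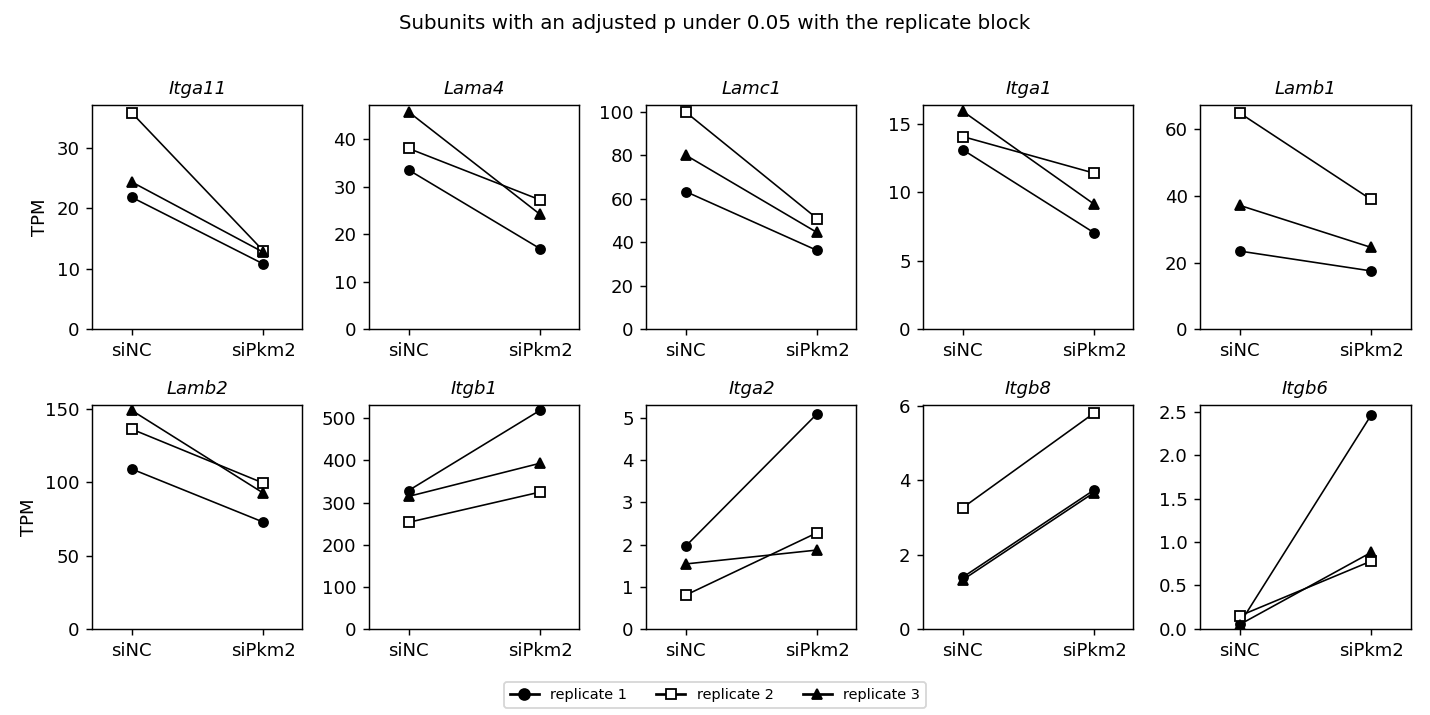
TPM of the 10 subunits with an adjusted p under 0.05 with the block, with a line joining the siNC and siPkm2 libraries of each replicate number. Every line runs down for Itga1, Itga11, Lama4, Lamb1, Lamb2 and Lamc1, and every line runs up for Itga2, Itgb1, Itgb6 and Itgb8.

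Of the laminin chains, 4 fell and none rose (Lamc1, Lamb1, Lamb2 and Lama4), where 10.8% of all genes tested fell and 12.3% rose. The gamma1 chain, encoded by Lamc1 (chr1:153218922-153332786 on GRCm38, minus strand), is shared by most laminin trimers. Lamc1 had 63.3, 99.8 and 80.1 TPM in siNC and 36.2, 50.9 and 44.5 TPM in siPkm2. The groups did not overlap and the 3 pairs fell by similar amounts, 0.84, 0.88 and 0.69 on the log2 scale. Across the pairs the log2 fold change of Lamc1 was -0.80 ± 0.09 SE with the block (1.75-fold lower, adjusted p = 0.0117) and -0.80 ± 0.18 SE without it (adjusted p = 0.131). Lamc1 made up 99.9% of the summed gamma chain TPM in siNC and 99.7% in siPkm2 on average, since Lamc3 had 7 to 14 counts per library.

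Both main beta chains fell by less. Lamb2 had 109, 136 and 149 TPM in siNC and 73.0, 99.6 and 92.8 TPM in siPkm2, with no overlap. Its log2 fold change was -0.45 ± 0.10 SE with the block (1.36-fold lower, adjusted p = 0.0296) and -0.44 ± 0.19 SE without it (adjusted p = 0.291). Lamb1 had 23.5, 64.9 and 37.2 TPM in siNC and 17.5, 39.0 and 24.6 TPM in siPkm2. Its highest value in each group was replicate 2 and the groups overlapped, while the pairs fell by 0.43, 0.75 and 0.52 on the log2 scale. For Lamb1 it was a log2 fold change of -0.57 ± 0.09 SE with the block (1.48-fold lower, adjusted p = 0.0183) and -0.61 ± 0.39 SE without it (adjusted p = 0.465). Lamb3, a chain of epithelial laminin-332, had 4.99 ± 1.10 TPM in siNC and 5.71 ± 0.84 TPM in siPkm2 and did not pass (adjusted p = 0.285 with the block).

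The alpha chains did not move together. Lama4, the alpha chain of laminins typical of blood vessels, muscle and other mesenchymal tissues, had 33.6, 38.1 and 45.8 TPM in siNC and 17.0, 27.3 and 24.2 TPM in siPkm2, with no overlap. Its log2 fold change was -0.83 ± 0.14 SE with the block (1.78-fold lower, adjusted p = 0.0186) and -0.82 ± 0.19 SE without it (adjusted p = 0.136). Lama5, the most abundant alpha chain on average, had 46.7, 88.1 and 34.5 TPM in siNC and 59.8, 87.0 and 56.2 TPM in siPkm2. Replicate 2 was the highest library in both groups, and the log2 fold change with the block was 0.30 ± 0.16 SE (adjusted p = 0.216). In the summed alpha chain TPM, Lama4 made up 41.4% ± 12.3 in siNC and 24.8% ± 4.09 in siPkm2, and Lama5 made up 55.2% ± 13.8 and 73.0% ± 4.16. In siNC replicate 3 the larger share was that of Lama4, and in each siPkm2 library it was that of Lama5. Lama2, the alpha chain of muscle laminin, had means of 1.67 ± 0.54 and 0.93 ± 0.52 TPM, and Lama1 and Lama3 had means under 1 TPM in both groups.

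**Figure D4:**
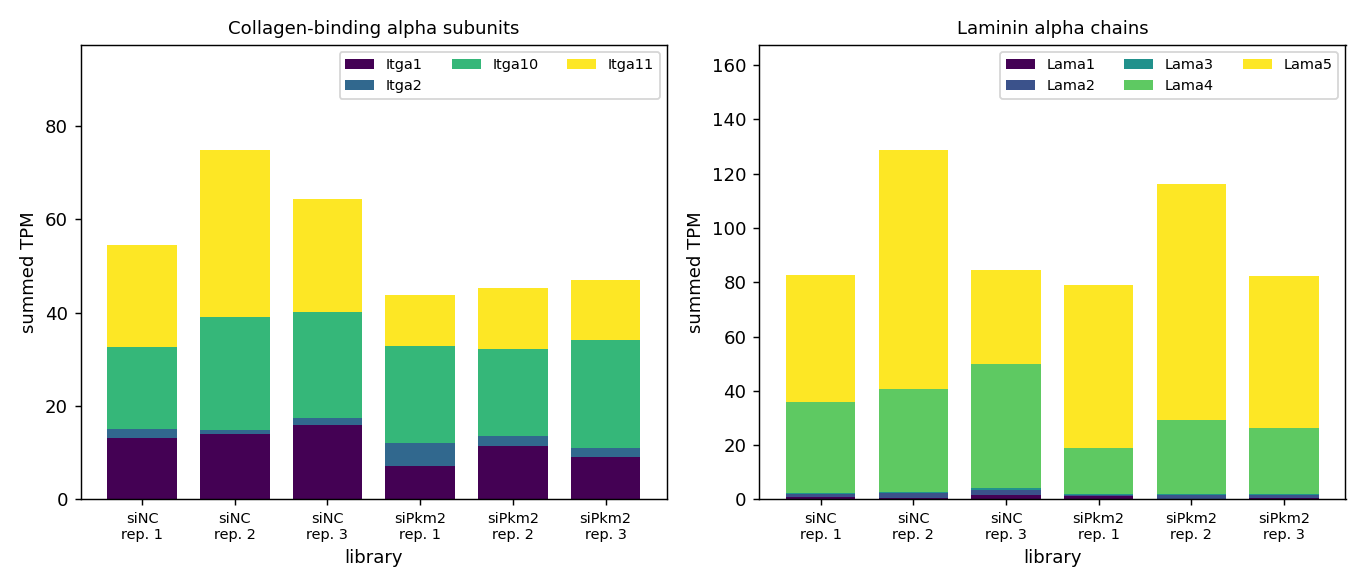
Summed TPM of the collagen-binding integrin alphas and of the laminin alpha chains in each of the 6 libraries, stacked by subunit from 0. The collagen-binding sum is 54.4 to 74.9 TPM in siNC and 43.7 to 46.9 TPM in siPkm2, and the Lama4 share of the laminin alpha sum is 29.5% to 54.2% in siNC and 21.5% to 29.4% in siPkm2.

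Summed by chain type, laminin gamma transcripts went from 81.2 ± 18.3 TPM in siNC to 44.0 ± 7.36 TPM in siPkm2 and beta transcripts from 178 ± 36.4 to 121 ± 23.3 TPM, while alpha transcripts were 98.7 ± 26.1 and 92.4 ± 20.5 TPM (SD, n = 3 each). The integrin beta sum was 438 ± 21.9 TPM in siNC and 593 ± 109 TPM in siPkm2, and the integrin alpha sum was 303 ± 47.7 and 286 ± 24.0 TPM. Whether fewer cells of a type or less RNA per cell lay behind such differences cannot be told apart in these bulk libraries. The 6 markers of smooth muscle and pericytes, cells rich in several of these laminins, summed to 368, 226 and 437 TPM in siNC and 149, 175 and 188 TPM in siPkm2. Acta2 made up most of this sum in siNC replicates 1 and 3 only (252, 86.9 and 284 TPM in siNC against 42.4, 62.6 and 58.4 TPM in siPkm2). Myh11, a defining marker of mature smooth muscle, was at 0.12 TPM or less in each library. These markers went both ways. Of the 5 tested, 1 rose and 2 fell, where 12.3% and 10.8% of all genes did. Their log2 fold changes without the block ran from -1.92 to 2.21. The 5 osteoblast markers summed to 337, 47.6 and 225 TPM in siNC and 139, 45.9 and 72.3 TPM in siPkm2. Of these sums, Ibsp alone had 267, 17.7 and 166 TPM in siNC and 89.7, 11.7 and 35.9 TPM in siPkm2. The same gene is counted below among the integrin ligands. Markers of synovial fibroblasts summed to 79.4 to 169 TPM in siNC and 116 to 185 TPM in siPkm2, and Schwann cell markers, mostly S100b, to 27.3 to 76.2 and 41.0 to 131 TPM. The part of these cells in the laminin values was not tested.

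The calls with the block needed replicates 1 and 3. With replicate 1 or with replicate 3 left out of both groups, no subunit passed both thresholds, and neither did any other gene tested, although folds were of similar size. Itga11 then had log2 fold changes of -1.13 and -1.21 (adjusted p = 0.0676 and 0.0869, edgeR with the block), and Itgb8 had 1.24 and 1.22. With replicate 2 left out, 18 subunits had an adjusted p under 0.05 and 6 also passed the fold change of 2: Itga2, Itga7, Itgb3, Itgb6, Itgb8 and Lama4. Leaving out replicate 2 without a block put 4 past both thresholds: Itgb3, Itgb6, Itgb8 and Lama4. Itga11 then fell 0.95 on the log2 scale (adjusted p = 0.0336), just short of the fold of 2.

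The sequences of the siRNAs were compared with the subunits' 3′ untranslated regions, since bases 2 to 8 of a guide strand (the seed) can pair with other transcripts in the manner of a microRNA. The labels name no numbered siRNA for the sequenced cells, while the supplement states that siPkm2 #3 was the one chosen for the study. The guide strands listed for the 3 siRNAs are shown here 5′ to 3′ with the seed in capitals.
siPkm2 #1: aUGGUACAaaugaugccagtt
siPkm2 #2: aCAUUCUUgauggucucugtt
siPkm2 #3: uGUUUCUCcagacagcaugtt
The 7 bases complementary to each seed were searched for on the transcript strand, in the longest 3′ untranslated region that the annotation gives a gene. For siPkm2 #3 (GAGAAAC), 1 of the 29 tested subunits held a match, Itga4 (3.45%), against 16.3% of 13307 tested genes, and a search of every annotated 3′ untranslated region added Itga6. Genes with such a match had a median log2 fold change of -0.17 with the block and those without it 0.037, whereas for siPkm2 #1 these medians were -0.033 and 0.0091 and for siPkm2 #2 -0.0055 and 0.0070. For siPkm2 #2 (AAGAATG) there were 3, Itga4, Itgav and Itgb3 (10.3% against 15.8% of genes). For siPkm2 #1 (TGTACCA) there were 5, Itga1, Itga7, Itga9, Itgb6 and Lamc1 (17.2% against 10.8% of genes). Of the 10 subunits with an adjusted p under 0.05 in edgeR with the block, Itgb6 included, none held a match to siPkm2 #2 or #3, and 3 held a match to siPkm2 #1. Those 3 are shown in their surroundings, with the match in capitals, beside the match in Itga4. Coordinates are on GRCm38.
Itga1, chr13:114958963-114958985, minus strand, the first of its 3 matches: tgttatatTGTACCAagaaatca
Itgb6, chr2:60599301-60599323, minus strand: atcccgtaTGTACCAcccagaac
Lamc1, chr1:153219901-153219923, minus strand: caggaaccTGTACCAtgcctggt
Itga4, chr2:79329972-79329994, plus strand, match to siPkm2 #3: aagacttaGAGAAACaagaatat
Itga1 and Lamc1 fell, while Itgb6 was higher in siPkm2 and could be tested only for that reason. Whether seed matches had a part in these changes was not tested. A match is a run of letters and does not show binding.

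The other genes of the pathway were taken from lists chosen by name, and 107 of them were tested. With the block, 9 of these (8.41%) passed both thresholds, against 5.83% of all genes, and 36 (33.6%) had an adjusted p under 0.05, against 23.1%. Integrin ligands were the list with the most calls. Of 27 tested ligands none rose and 10 fell, where 12.3% of all genes rose and 10.8% fell. Of the 10, 6 fell by more than 2-fold, where 3.18% of all genes fell by that much. Npnt, or nephronectin, a ligand of alpha8 beta1, had 13.1, 11.4 and 19.0 TPM in siNC and 5.86, 4.95 and 3.47 TPM in siPkm2, a log2 fold change of -1.61 ± 0.28 SE with the block (adjusted p = 0.0195) and -1.61 without it (adjusted p = 0.104). Thbs4 and Ibsp fell by 1.45 each and Spp1, or osteopontin, fell by 1.24 on the log2 scale with the block, but not without it (adjusted p = 0.338, 0.468 and 0.504 in edgeR). Spp1 had 2968, 13556 and 1857 TPM in siNC and 1664, 4612 and 683 TPM in siPkm2, so its groups overlapped although each pair fell. Thbs1, named after its values were seen, had 4903, 4184 and 5692 TPM in siNC and 2560, 1728 and 2337 TPM in siPkm2, with no overlap. It fell by 1.12 on the log2 scale (adjusted p = 0.0134 in edgeR with the block and 0.185 without it). The most abundant ligands, Col2a1 and Fn1, did not pass, with log2 fold changes of -0.082 and 0.41 with the block (adjusted p = 0.801 and 0.121).

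Of the 17 basement membrane genes tested, 2 rose and 3 fell, where 12.3% and 10.8% of all genes did. Sparc, a collagen-binding matricellular protein, had 5082, 3288 and 7030 TPM in siNC and 1283, 682 and 1478 TPM in siPkm2, with no overlap. Its log2 fold change was -2.13 ± 0.12 SE with the block (adjusted p = 0.00932) and -2.12 without it (adjusted p = 0.125). Col15a1 fell by 2.34 on the log2 scale, from 14.3, 3.45 and 24.8 TPM to 2.76, 1.08 and 2.43 TPM, with overlap between the groups and an adjusted p of 0.235 without the block. Nid1, or nidogen-1, which links the laminin gamma1 chain to type IV collagen, was chosen after its values were seen: it had 93.7, 97.1 and 128 TPM in siNC and 51.1, 72.0 and 64.2 TPM in siPkm2 and fell by 0.72 with the block (adjusted p = 0.0233, and 0.158 without it). The other 2, also named after their values were seen, were Ntn4 and Col4a6, which rose by log2 fold changes of 0.97 and 0.92 (adjusted p = 0.116 and 0.150 without the block). Hspg2, or perlecan, had 314 ± 37.8 TPM in siNC and 386 ± 39.2 TPM in siPkm2 and did not pass (adjusted p = 0.0595 with the block).

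Among the 7 laminin receptors that are not integrins, 3 rose and 1 fell, beside the same 12.3% and 10.8% over all genes. Bcam, which binds the laminin alpha5 chain, had 17.9, 24.1 and 17.8 TPM in siNC and 40.3, 58.3 and 42.1 TPM in siPkm2. Every siPkm2 library lay above every siNC library, at a log2 fold change of 1.25 ± 0.09 SE (adjusted p = 0.00942 with the block and 0.0858 without it). Sdc4, or syndecan-4, a coreceptor of alpha5 beta1 for fibronectin, rose by 0.98 on the log2 scale (adjusted p = 0.321 without the block). Sdc1 rose by 0.44 and Sdc2 fell by 0.45 (adjusted p = 0.627 and 0.401 without the block), and both were named after their values were seen. Dag1, which encodes dystroglycan, had 116 ± 14.9 and 93.8 ± 11.2 TPM and did not pass (adjusted p = 0.0686 with the block). Of 12 tested genes that build the laminin-binding glycan on dystroglycan, 1 rose and 4 fell, none by 2-fold, where 10.8% of all genes fell.

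On the cytoplasmic side, of 32 tested adhesion genes, 6 rose and 2 fell, none by 2-fold, a share near the 23.1% of all genes that rose or fell. The furthest from 0 among these 8, named after their values were seen, were Parvb, which encodes beta-parvin, at 0.96 and Tgfb1i1, which encodes the paxillin relative Hic-5, at -0.92 (adjusted p = 0.0489 and 0.0342 with the block, and 0.488 and 0.173 without it). Cav1, or caveolin-1, a membrane protein that associates with integrins, had 265, 263 and 307 TPM in siNC and 405, 453 and 391 TPM in siPkm2, a log2 fold change of 0.70 ± 0.11 SE (adjusted p = 0.0176 with the block and 0.137 without it). Actn4, the other most abundant gene of this list, had 274 ± 60.3 and 314 ± 40.6 TPM and did not pass. Of the 9 integrin partners in the membrane, Cd82, Tspan4 and Cd47 rose, at log2 fold changes of 0.67, 0.40 and 0.59 with the block (adjusted p = 0.151, 0.341 and 0.533 without it), and none fell, where 12.3% of all genes rose. Of the 7 subunits outside the 30, 3 were tested. Itga2b, the alpha chain of the platelet fibrinogen receptor, fell by 0.95 (8.51, 13.1 and 7.86 TPM against 3.14, 5.16 and 4.13 TPM, adjusted p = 0.0237 with the block and 0.234 without it).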

How the data were processed

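RNA-seq libraries of 3 siNC and 3 siPkm2 samples were analysed. The authors deposited estimated counts per gene, not normalized and partly fractional, and TPM values, which the authors scaled within each library. The authors' own comparison columns (a fold change as a ratio, a log2 fold change and p-values) and group means were not used. The submitters' processing notes name mm9 and edgeR. The aligner and counter are not given in the sources used here.

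Counts were rounded to whole numbers. Genes were kept by filterByExpr (15269), scaled by TMM factors and compared by the quasi-likelihood test of edgeR 4.0.16 in R 4.3.3, and p-values were adjusted by Benjamini-Hochberg across the whole tested table. Calls needed a fold over 2 and an adjusted p under 0.05. CPM uses the TMM-scaled library sizes, and the differences of single pairs use log2(CPM + 0.5). Standard errors are the absolute log2 fold change divided by the square root of its F. Alternatives used DESeq2 1.42.0, limma 3.58.1 on log2(TPM + 1) and log2(TPM + 0.1), other scalings and filters, and left-out libraries. Figures were drawn with matplotlib 3.10.9.

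Labels give both groups replicate numbers 1 to 3. Deviations from the group means correlated at 0.72, 0.79 and 0.72 across genes for libraries with the same number, and at 0.22 or below otherwise, so the numbers were taken as pairs. What a number stands for is not stated.

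Positions and untranslated regions are from GENCODE M21 on GRCm38, where 52083 of 55416 identifiers were found, and siRNA sequences from the study's supplement. The subunits and gene lists were chosen with earlier results of these data known. Values per library were given for subunits with an adjusted p under 0.05 in either fit and for the 12 with the highest TPM. From each list the genes named were up to 4 of those called with the block and the 2 with the highest TPM, unless stated.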

Additional observations from a re-analysis of the deposited data

How the results depend on the processing

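Without the block, no subunit was called under any scaling, filter, limma fit or single left-out library. Subunits called numbered 4 with the replicate block, 3 by DESeq2, 5 by DESeq2 with the block, 6 with the block and without replicate 2, 4 without both libraries of replicate 2 and no block (chosen after seeing the data), and 10 with the block and no threshold on the fold. Itgb6 is in each of these counts of subunits. Over all genes the counts were 890, 430, 1028, 1639, 507 and 3524. There were 3 with upper-quartile factors, 9 with no filter, 3 with at least 10 counts in every library and 1 in each limma fit. Leaving out single libraries without the block gave 0 to 105, the highest without siNC replicate 2. For the 107 pathway genes the counts in the same order as the subunits were 9, 5, 11, 17, 7 and 36. With the block and without replicate 1 or 3, all 3 counts were 0. Pkm passed with the block (-2.53), by DESeq2 (-2.50, and -2.52 with the block), with the block and without replicate 2 (-2.63) and without both libraries of replicate 2 (-2.65). With single libraries left out its log2 fold change was -2.80 to -2.34, and it passed without siNC replicate 2. Of the 17 subunits with values in each library, 12 kept their sign in every fit. For the other 5, Itga10, Itga3, Itga6, Itga5 and Lama5, the sign turned in at least 1 fit. With the block and without replicate 2, Itga3 had 0.27 and Lama5 had 0.51 (adjusted p = 0.0358 and 0.00417 in edgeR). Itga10 had -0.014 with upper-quartile factors, -0.032 and -0.033 in the limma fits and -0.058 with the block and without replicate 1. Itga3 had -0.060 with upper-quartile factors, -0.0060 with at least 10 counts in every library, and -0.056 and -0.016 with the block and without replicate 1 or 3. Itga5 had 0.0087 with the block and without replicate 2, and 0.0084 without both its libraries and no block. With single libraries left out, the values were -0.031 to 0.16 for Itga10, -0.21 to 0.42 for Itga3, -0.61 to 0.33 for Itga6, -0.21 to 0.21 for Itga5 and -0.026 to 0.68 for Lama5. The cause of these shifts was not tested. With 3 libraries per group, edgeR without the block did not detect even the fall of Pkm (adjusted p = 0.0738). That adjusted p was 0.0495 without siNC replicate 2 and 0.141 without siPkm2 replicate 2.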
